A study of Homo sapiens with 20 samples.

Results

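The 10 genes described here encode secreted factors that act on blood vessels: VEGFA, VEGFB, VEGFC, ANGPT1, ANGPT2, ANGPTL4, FGF2, SEMA3A, KITLG and THBS1. They were taken by gene symbol from a table of 58676 genes, and 9 of them passed the filter on low counts that left 12111 genes for testing. ANGPT2 did not pass. RNA was sequenced from an immortalized line of human pericytes, the mural cells that wrap capillaries, named CL 05008-CLTH and labelled wild-type. Control cultures received no added factor. The eNAMPT cultures received recombinant human eNAMPT, the secreted form of nicotinamide phosphoribosyltransferase, at 500 ng/mL. The PDGF-BB cultures received recombinant human PDGF-BB, the ligand of the PDGF receptors, at 20 ng/mL. A further group, called both here, received both factors at those doses. Treatment lasted 4 hours, all cultures were grown in DMEM with fetal bovine serum, and each group had 5 libraries labelled as biological replicates of this 1 line. Nothing in the labels says whether these came from separate cultures, so p-values measure the spread between these libraries only.

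Pericytes and endothelial cells of small vessels signal to each other through secreted ligands. VEGFA and VEGFC act on endothelial receptors to drive sprouting of blood and lymphatic vessels, ANGPT1 from mural cells stabilizes vessels through the receptor TEK, and ANGPT2 can oppose it. FGF2 and KITLG (stem cell factor) are growth factors, ANGPTL4 inhibits lipoprotein lipase and also affects vessel permeability, and THBS1 (thrombospondin-1) and SEMA3A are known as inhibitors of angiogenesis. PDGF-BB from endothelium is itself the classical recruiting signal of pericytes.

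PDGF-BB was accompanied by higher ANGPTL4, KITLG and THBS1, and none of the 9 genes tested passed when eNAMPT was added. Against control, 3 of the 9 tested genes were higher with PDGF-BB and none was lower, at an adjusted p under 0.05. Over all 12111 tested genes 1.21% passed, 1.05% higher and 0.165% lower. The 9 genes were chosen with earlier results of these data known. Setting their shares or medians beside those of all genes, here and below, therefore does not test enrichment. With both factors against control, 3 of 9 were higher (ANGPTL4, FGF2 and THBS1), where 1.98% of all genes passed, 1.63% higher and 0.347% lower. Of the same 9 genes, 4 were higher with both factors than with eNAMPT alone (ANGPTL4, VEGFA, KITLG and THBS1), where 1.53% of all genes passed, 1.18% higher and 0.347% lower. In the comparison of eNAMPT with control 0 of 9 passed in edgeR's quasi-likelihood test, DESeq2 or limma-voom. By edgeR 0.0743% of all genes passed there, all higher. Adding eNAMPT to PDGF-BB also left 0 of 9 past the threshold by these tools, and 0.0578% of all genes passed by edgeR. The interaction, which is the eNAMPT effect with PDGF-BB less the effect without it, passed for 0 of 9 genes and for 0% of all genes by edgeR.

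At an unadjusted p under 0.05 the counts were larger. With PDGF-BB against control 5 of 9 members met it, where 9.64% of all genes did. With both factors 7 of 9 met it against control and 7 of 9 against eNAMPT, where 10.9% of all genes did in each. With eNAMPT 1 of 9 met it (3.61% of all genes), with eNAMPT added to PDGF-BB 0 of 9 (3.4%) and for the interaction 0 of 9 (3.35%).

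The median log2 fold change of the 9 genes was 0.38 with PDGF-BB and 0.43 with both factors against control, where the medians of all genes were both -0.005. It was 0.41 with both factors against eNAMPT, where the median of all genes was -0.002. It was -0.048 with eNAMPT against control and 0.04 with both factors against PDGF-BB, near the medians of all genes of -0.001 and 0.002. The comparisons against control share the control libraries.

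Libraries held 2894878 to 4011066 gene counts, of which 8.28% to 9.71% were mitochondrial. The mitochondrial share was 9.15% ± 0.472 in control, 9.07% ± 0.4 after eNAMPT, 8.67% ± 0.284 after PDGF-BB and 8.6% ± 0.232 after both (SD, n = 5), and its part in the results was not tested. Of 12 pericyte markers 11 had a mean above 1 CPM in every group, with DES, the muscle intermediate filament desmin, below it. PDGFRB stood at 133 CPM and RGS5 at 21.8 CPM in control. CPM means counts scaled to a library total of 1e+06 after TMM, a correction for differences in library composition. Of 9 endothelial markers 3 were above 1 CPM, and all 9 summed to 5.45 to 14.8 CPM over all libraries. Those above 1 CPM were TEK, the receptor of the angiopoietins (3.47 CPM in control), TIE1 (3.22) and PECAM1 (1.08). CDH5 and VWF were at most 0.465 CPM in any group, and EMCN was at 0 in every library of 3 groups. The 6 fibroblast markers summed to 3810 to 5190 CPM and the 12 pericyte markers to 1130 to 1920 CPM. The 8 leukocyte markers summed to 19.6 to 31.6 CPM, with PTPRC at most 0.124 CPM in any group. Of these 8, 3 were above 1 CPM: CD14 (18.4 CPM in control), CD68 (3.42) and CSF1R (2.54). The epithelial markers, 3 of 8 above 1 CPM and mostly KRT18, summed to 156 to 198 CPM in control, 137 to 183 after eNAMPT, 175 to 237 after PDGF-BB and 202 to 257 after both. KRT18 was higher with both factors against control by 0.39 on the log2 scale (adjusted p = 0.0154) and against eNAMPT by 0.49 (adjusted p = 0.00136). Its part in the results below was not tested.

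The libraries numbered 5 deviated together for most of these genes. All 4 lay below their group's mean for VEGFA and VEGFB, and all 4 lay above it for VEGFC, ANGPTL4, FGF2, KITLG and THBS1. That is 5 of 9 genes above and 2 of 9 below, where 13.3% of all tested genes had all 4 libraries above and 11.5% had all 4 below. Lists of related genes read below showed it too. The shares above and below were 42.1% and 10.5% of 19 other secreted pro-angiogenic factors. They were 46.7% and 20% of 15 other secreted inhibitors or guidance factors. For 19 receptor genes they were 15.8% and 15.8%, and for 21 HIF and hypoxia genes 9.52% and 23.8%. Other numbers shared this trait for fewer of the 9 genes. All libraries numbered 1 lay below their group's mean for VEGFC, ANGPTL4, FGF2 and THBS1. So did those numbered 2 for KITLG and THBS1, and those numbered 3 for ANGPT1 and FGF2. Those numbered 4 all lay above it for ANGPT1. The mean deviation of the libraries numbered 5 was -0.56 on the log2 scale for VEGFA, which is the largest of the 9, and 0.44 for VEGFC. Their depth was 2963873 to 3260782 gene counts and their mitochondrial share 8.35% to 9.48%, inside the range of the other 16 libraries. Their spike-in share was 2.06% to 2.91%, against 1.57% to 2.71% in the others. With the libraries numbered 1 to 4 only, 4 of 9 genes passed with PDGF-BB against control, 4 with both factors against control and 5 with both factors against eNAMPT. Of all genes 1.17%, 1.63% and 1.5% passed there. These counts were made after the pattern was seen.

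**Figure D1:**
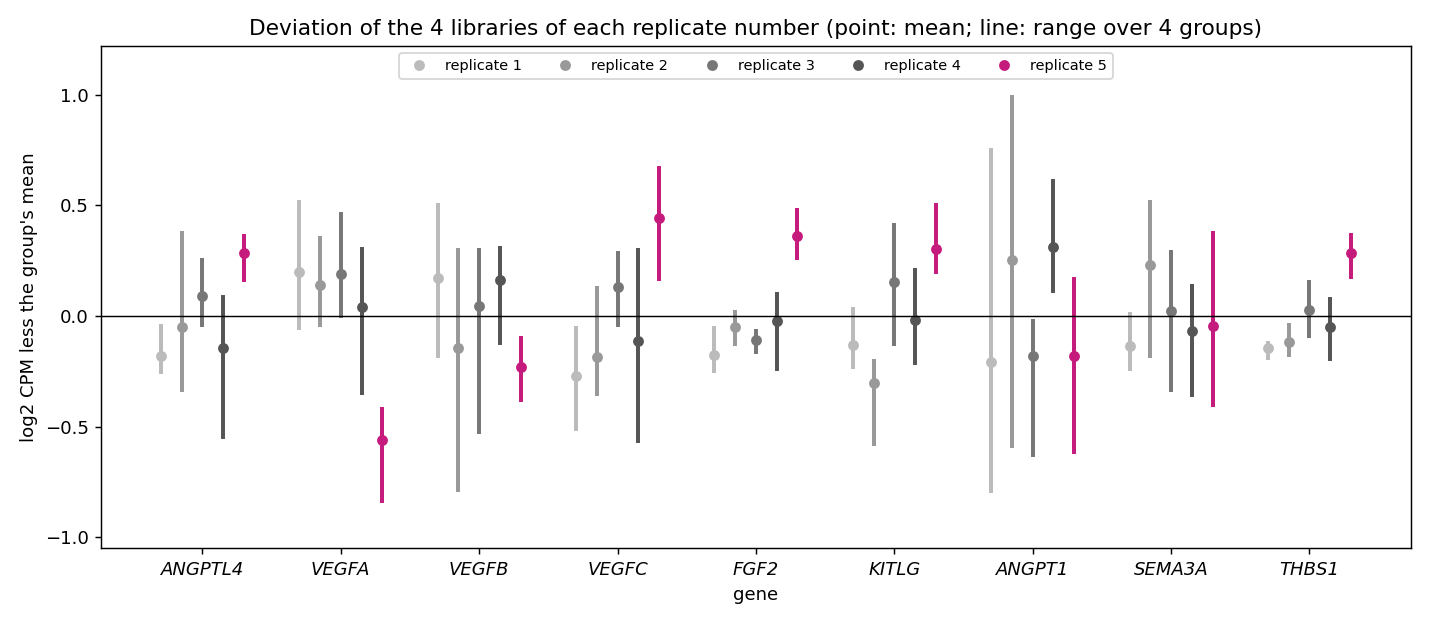
Deviation of log2 CPM from the group's mean (y axis) for each of the 9 tested genes (x axis), by replicate number; points are the means over the 4 libraries of that number and lines run from the lowest to the highest of them. The libraries numbered 5 lie wholly below 0 for VEGFA and VEGFB and wholly above 0 for VEGFC, ANGPTL4, FGF2, KITLG and THBS1.

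ANGPTL4 showed the largest change of the 9 genes in each of the comparisons that add PDGF-BB. The gene (ENSG00000167772, GRCh38 chromosome 19, 8363289 to 8374373, plus strand) encodes a secreted inhibitor of lipoprotein lipase. The control libraries stood at 22.3, 32.9, 26.9, 17.1 and 30.4 CPM, and the eNAMPT libraries at 19.5, 15.8, 19.6, 21.0 and 26.1 CPM. The PDGF-BB libraries stood at 54.6, 61.7, 67.5, 68.6 and 72.6 CPM, and those with both factors at 55.2, 58.8, 78.7, 58.2 and 83.8 CPM. All 10 libraries with PDGF-BB lay above all 10 without it. Mean levels were 25.9 ± 6.34 CPM in control cells, 20.4 ± 3.71 after eNAMPT, 65.0 ± 6.99 after PDGF-BB and 66.9 ± 13.3 after both (SD, n = 5).

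The rise of ANGPTL4 with PDGF-BB was 2.52-fold, a log2 fold change of 1.34 with a standard error of 0.148 (adjusted p = 4.26e-08). With both factors against control it was 2.59-fold (adjusted p = 7.38e-09), and against eNAMPT alone it was 3.27-fold (adjusted p = 6.56e-11). These calls held under every alternative that was run, including leaving out each library. ANGPTL4 was the member with an unadjusted p under 0.05 in the comparison of eNAMPT with control. Its log2 fold change there was -0.34 (95% interval -0.667 to -0.004, adjusted p = 1), and 1 of the 5 libraries with eNAMPT exceeded the mean of control. With PDGF-BB present, the same addition of eNAMPT gave 0.04 (95% interval -0.234 to 0.313). The difference of these effects was 0.38 (95% interval -0.055 to 0.805, adjusted p = 0.999). In such bulk RNA more RNA per cell and more cells of an expressing kind cannot be told apart. The antisense gene RAB11B-AS1 overlaps ANGPTL4 and held 181 counts over all libraries, against 2946 for ANGPTL4, and whether the counting used strand is not given in the sources used here.

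**Figure D2:**
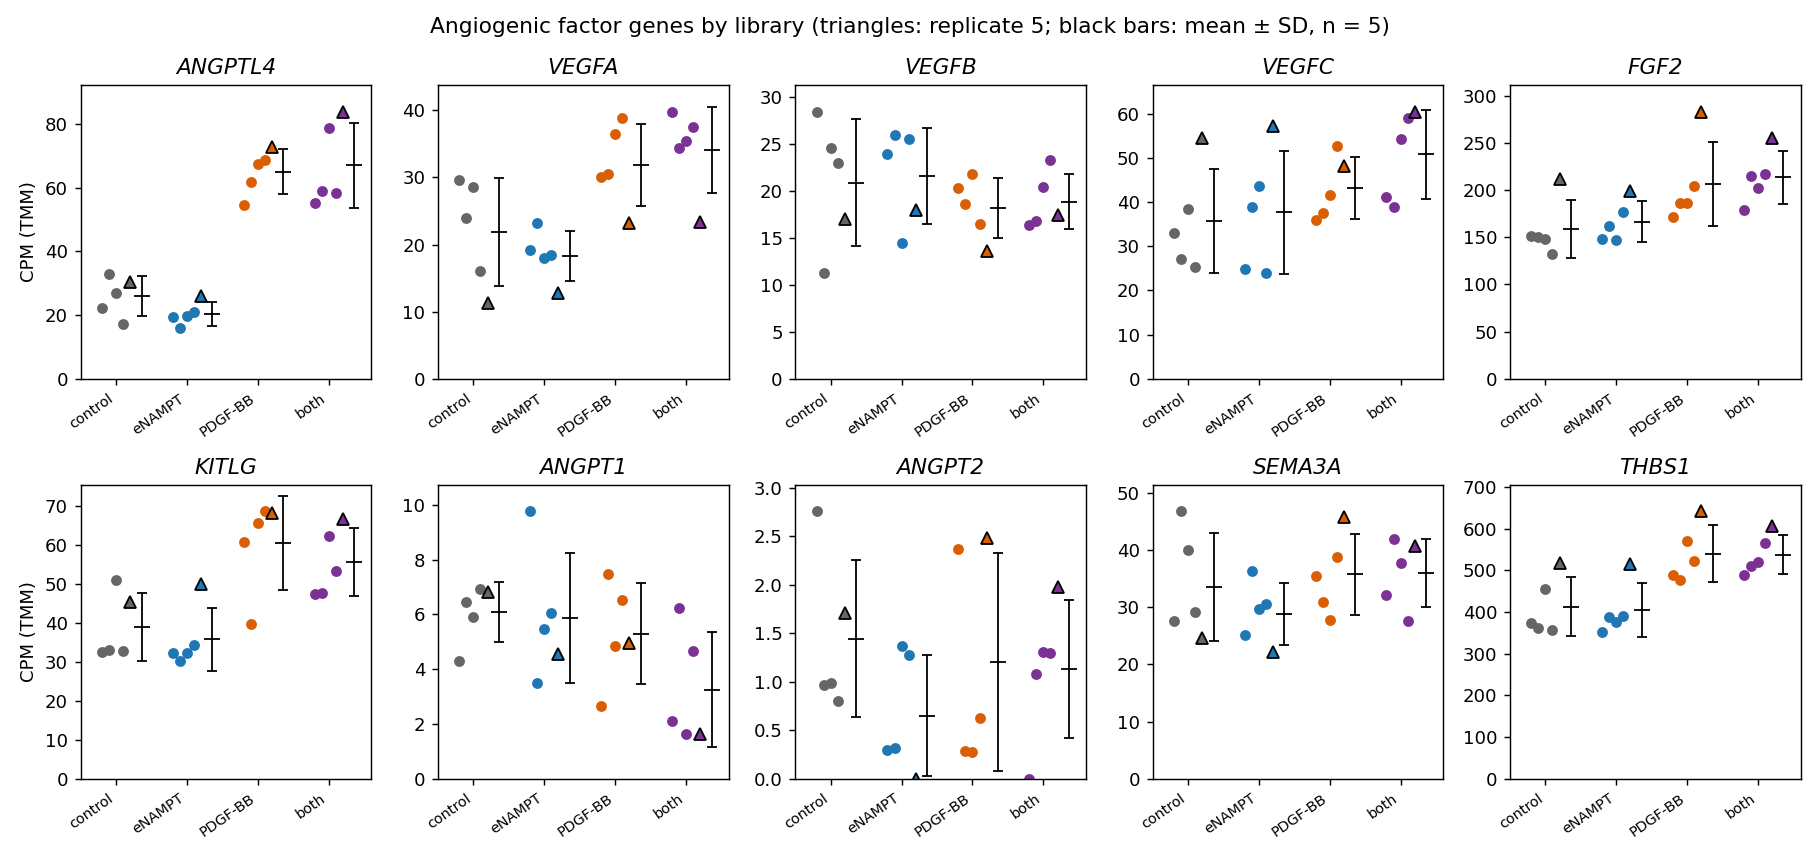
Level of each of the 10 genes in CPM after TMM scaling (y axes, from 0) by group (x axes); each point is a library, triangles are the libraries numbered 5, and black bars are the mean ± SD of 5 libraries. For ANGPTL4 the libraries with PDGF-BB, alone or with eNAMPT, lie at 54.6 CPM or more and those without it at 32.9 CPM or less.

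The sequence before the start site is shown for ANGPTL4 and THBS1, the members that rose in all comparisons that add PDGF-BB. RefSeq promoter windows on GRCh38.p14 were at hand for 6 of the 10 genes. The stretch of ANGPTL4 is chr19:8363905-8364150 on the plus strand, bases -250 to -5 from the start site, and that of THBS1 is chr15:39580829-39581078 on the plus strand, bases -250 to -1. Start sites are those of RefSeq. For ANGPTL4 this start lies downstream of the GENCODE 29 gene start given above, so the window lies within that gene. The KITLG window, which was searched but is not shown, lies wholly in exons of KITLG in GENCODE 29 (250 of 250 bases). Capitals mark matches to an EGR motif, GCGNGGGCG, and in ANGPTL4 also a TATA box, TATAAA.
ANGPTL4: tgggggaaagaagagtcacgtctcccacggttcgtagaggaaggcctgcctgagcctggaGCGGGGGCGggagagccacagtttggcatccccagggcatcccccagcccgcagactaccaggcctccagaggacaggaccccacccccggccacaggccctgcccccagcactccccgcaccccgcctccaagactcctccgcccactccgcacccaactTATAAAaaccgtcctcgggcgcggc
THBS1: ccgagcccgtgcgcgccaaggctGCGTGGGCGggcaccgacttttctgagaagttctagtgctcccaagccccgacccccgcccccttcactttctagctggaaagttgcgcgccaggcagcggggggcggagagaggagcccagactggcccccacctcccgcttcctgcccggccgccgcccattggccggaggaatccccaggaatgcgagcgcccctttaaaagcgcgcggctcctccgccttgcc
The EGR match of ANGPTL4 lies at -190 to -182 and its TATA box at -29 to -24, and the EGR match of THBS1 lies at -227 to -219. The TATA box was also found in KITLG at -29 to -24. Both EGR matches overlap a GC box, GGGCGG, which all 6 windows held. An EGR match was also found in VEGFB on the minus strand, and none was found in the windows of VEGFC, FGF2 and KITLG. Among 35116 promoters of 250 bases, searched on both strands, 8.41% held the EGR motif, 42.6% the GC box and 10.7% the TATA box, which was added to the search after these sequences were seen. The AP-1 motif TGACTCA, the CRE motif TGACGTCA and the CArG box were not found in the 6 windows, where 4.2%, 1.65% and 1.16% of all promoters held them. The HIF motif ACGTG, held by 18.5% of promoters, was found in ANGPTL4 on the minus strand at -234 to -230, and the NF-kB motif, held by 9.96%, in VEGFC. A match describes the letters only. EGR1, the gene of a zinc finger factor known to bind such sequences, was at 67.0 CPM in control and 207 CPM with PDGF-BB, a log2 fold change of 1.63 (adjusted p = 2.68e-15). Its part in the changes of these genes was not tested.

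Among the VEGF ligands, VEGFA was higher with both factors than with eNAMPT alone, and VEGFB and VEGFC did not pass in any comparison. VEGFA (ENSG00000112715, chromosome 6, 43770184 to 43786487, plus strand) is the main endothelial mitogen of the family. Its control libraries stood at 29.7, 23.9, 28.6, 16.0 and 11.3 CPM and the eNAMPT libraries at 19.2, 23.1, 18.0, 18.5 and 12.7 CPM. The PDGF-BB libraries stood at 30.1, 30.4, 36.4, 38.8 and 23.3 CPM and those with both at 39.8, 34.4, 35.4, 37.5 and 23.3 CPM. The libraries with both factors all lay above those with eNAMPT, while those with PDGF-BB overlapped the control range. The last value in each group, that of the library numbered 5, was the lowest. Means were 21.9 ± 8.01, 18.3 ± 3.73, 31.8 ± 6.09 and 34.1 ± 6.37 CPM in control, eNAMPT, PDGF-BB and both (SD, n = 5).

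With both factors against eNAMPT, VEGFA rose 1.86-fold (log2 0.90, standard error 0.194, adjusted p = 0.00473). Scaling by spike-in counts ended that call (log2 0.76, adjusted p = 0.188), and leaving out any library did not. With PDGF-BB against control VEGFA stood 1.46-fold higher but did not pass (95% interval of the log2 fold change 0.155 to 0.928, adjusted p = 0.223). After both factors it stood 1.56-fold higher than control (adjusted p = 0.0741). That value passed by limma-voom (0.0462), with no filter on low counts (0.00999) and without control replicate 1 (0.0293), control replicate 3 (0.0428) or replicate 5 of both (0.0268). With the replicate number as a block in the model, VEGFA passed against control with PDGF-BB (adjusted p = 0.0177) and with both (0.0019). That the numbers pair the libraries is a hint from the data and from the sample order, which runs through all groups of each replicate in turn. The labels do not state a pairing. The interaction for VEGFA was 0.35 (95% interval -0.197 to 0.905, adjusted p = 0.999), so the PDGF-BB effects with and without eNAMPT were not shown to differ.

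VEGFC (ENSG00000150630, chromosome 4, 176683538 to 176792727, minus strand), the lymphatic growth factor, stood at 33.0, 27.1, 38.4, 25.4 and 54.6 CPM in control and at 24.9, 39.0, 43.6, 23.9 and 57.1 CPM with eNAMPT. With PDGF-BB it stood at 36.0, 37.6, 41.6, 52.8 and 48.1 CPM, and with both at 41.2, 39.0, 54.3, 59.0 and 60.5 CPM. The groups overlapped, and the control and eNAMPT libraries numbered 5 were the highest of their groups. The log2 fold change was 0.28 with PDGF-BB (95% interval -0.095 to 0.659, adjusted p = 0.693) and 0.52 with both against control (95% interval 0.144 to 0.891, adjusted p = 0.198). The latter passed without control replicate 5 (log2 0.72, adjusted p = 0.0243), with no filter on low counts (0.011) and over the libraries numbered 1 to 4 (0.0483). With the replicate number as a block it passed (0.00416), as did VEGFC with both against eNAMPT (log2 0.45, adjusted p = 0.0229). VEGFB (ENSG00000173511, chromosome 11, 64234538 to 64238793, plus strand), a ligand of FLT1, ranged from 11.3 to 28.5 CPM in control, 14.4 to 26.0 after eNAMPT, 13.7 to 21.9 after PDGF-BB and 16.4 to 23.3 after both. Its log2 fold change with PDGF-BB was -0.2 (95% interval -0.601 to 0.204, adjusted p = 0.848) and its groups overlapped in every comparison.

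The growth factors FGF2 and KITLG were each higher in some of the comparisons that add PDGF-BB. KITLG (ENSG00000049130, chromosome 12, 88492793 to 88580851, minus strand) encodes the ligand of the receptor KIT. It stood at 32.4, 32.9, 50.9, 32.9 and 45.4 CPM in control and at 32.2, 30.1, 32.2, 34.4 and 49.9 CPM with eNAMPT. With PDGF-BB it stood at 60.8, 39.6, 65.6, 68.6 and 68.2 CPM and with both at 47.5, 47.7, 62.4, 53.3 and 66.7 CPM. In PDGF-BB, 4 of 5 libraries lay above the highest control, and replicate 2 lay within the control range.

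The rise of KITLG was 1.56-fold with PDGF-BB against control (log2 0.64, standard error 0.15, adjusted p = 0.0135) and 1.55-fold with both against eNAMPT (adjusted p = 0.0139). With both against control it stood 1.43-fold higher and did not pass (adjusted p = 0.0645). The first call ended without control replicate 1 (0.0576), 2 (0.0546) or 4 (0.0641), without PDGF-BB replicate 4 (0.0533) and with spike-in scaling (log2 0.66, adjusted p = 0.232). The second ended without eNAMPT replicate 1 (0.0502), 2 (0.0555) or 3 (0.056), without replicate 3 (0.0565) or 5 (0.0663) of both, and with spike-in scaling (log2 0.49, adjusted p = 0.633). The difference that did not pass did so without control replicate 3 (0.0207) or 5 (0.0425), PDGF-BB replicate 2 (0.0318), replicate 2 of both (0.0443) or eNAMPT replicate 5 (0.0374), with no filter (0.00612) and with only the groups compared (0.0447). It also passed with the replicate number as a block (0.00123).

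FGF2 (ENSG00000138685, chromosome 4, 122826708 to 122898236, plus strand), basic fibroblast growth factor, stood at 151, 150.0, 148, 132 and 211 CPM in control and at 148, 162, 147, 177 and 198 CPM with eNAMPT. With PDGF-BB it stood at 172, 186, 186, 205 and 283 CPM and with both at 178, 215, 202, 217 and 255 CPM. Control replicate 5 lay inside the range of the 10 libraries with PDGF-BB, alone or with eNAMPT, and the other 4 controls lay below all of these 10. FGF2 rose 1.35-fold with both factors against control (log2 0.43, standard error 0.114, adjusted p = 0.0282). With PDGF-BB against control it stood 1.30-fold higher (adjusted p = 0.102) and with both against eNAMPT 1.28-fold higher (adjusted p = 0.107).

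That FGF2 call was lost when control replicate 1 was left out (adjusted p = 0.078), 2 (0.0777), 3 (0.0816) or 4 (0.12), without replicate 4 (0.0573) or 5 (0.134) of both, and with spike-in scaling (log2 0.32, adjusted p = 0.833). Against control, FGF2 with PDGF-BB passed without control replicate 5 (log2 0.50, adjusted p = 0.00727), over the libraries numbered 1 to 4 (0.022) and with no filter (0.00125). Against eNAMPT, FGF2 with both passed without eNAMPT replicate 5 (0.0476), over the libraries numbered 1 to 4 (0.0176), with no filter (0.00357) and with only the groups compared (0.0319). With the replicate number as a block, FGF2 passed in each of these comparisons (1.53e-05 against control and 2.59e-05 against eNAMPT). NUDT6, on the opposite strand of the same locus, held 367 counts and the same-strand AC021205.1 held 862 counts, against 12267 for FGF2.

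The angiopoietins were the lowest of the 10 genes and did not pass in any comparison. ANGPT1 (ENSG00000154188, chromosome 8, 107249482 to 107498055, minus strand), the activating ligand of TEK, stood at 4.28, 6.46, 5.91, 6.95 and 6.82 CPM in control and at 9.76, 3.49, 5.45, 6.06 and 4.57 CPM with eNAMPT. With PDGF-BB it stood at 2.66, 7.47, 4.86, 6.52 and 4.96 CPM and with both at 2.1, 6.23, 1.63, 4.66 and 1.64 CPM. Of the libraries with both, 3 lay below all 15 others, and the other two lay among them. The log2 fold change with both against control was -0.85 (95% interval -1.612 to -0.096, adjusted p = 0.37), and against eNAMPT it was -0.81 (adjusted p = 0.416). With both against PDGF-BB it was -0.65 (95% interval -1.417 to 0.11, adjusted p = 1). Counts of 5 to 33 per library lie behind these values, and the count table used here held 94.2% of the ANGPT1 counts of the other deposited table.

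ANGPT2 (ENSG00000091879, chromosome 8, 6499651 to 6563409, minus strand), the context-dependent ligand of TEK, had 0 to 9 counts per library. Its mean was 1.44 ± 0.811 CPM in control, 0.65 ± 0.624 after eNAMPT, 1.2 ± 1.12 after PDGF-BB and 1.13 ± 0.715 after both (SD, n = 5). All groups overlapped, and 2 libraries, eNAMPT replicate 5 and replicate 1 of both, had 0 counts. Two-sided exact permutation tests gave p = 0.103 for eNAMPT against control and 0.333 to 0.905 for the other comparisons, or 0.515 to 0.905 adjusted over the 5. The smallest p these tests can give is 0.00794. ANGPT2 lies within MCPH1 on the opposite strand, which held 1189 counts against 73.

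Of the inhibitors of angiogenesis, THBS1 rose wherever PDGF-BB was added and SEMA3A did not pass in any comparison. THBS1 (ENSG00000137801, chromosome 15, 39581079 to 39599466, plus strand), thrombospondin-1, stood at 374, 361, 454, 356 and 516 CPM in control and at 351, 389, 376, 390 and 516 CPM with eNAMPT. With PDGF-BB it stood at 488, 476, 571, 523 and 641 CPM and with both at 489, 510, 519, 565 and 605 CPM. The replicate 5 libraries of control and eNAMPT lay within the ranges of the treated groups, and the other 8 untreated or eNAMPT libraries lay below all 10 with PDGF-BB. Means were 412 ± 70.5, 404 ± 64.5, 540.1 ± 67.5 and 538 ± 47.0 CPM in control, eNAMPT, PDGF-BB and both (SD, n = 5).

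The rise of THBS1 was 1.31-fold with PDGF-BB (log2 0.39, standard error 0.095, adjusted p = 0.0226), 1.30-fold with both against control (adjusted p = 0.0169) and 1.33-fold with both against eNAMPT (adjusted p = 0.00997). The first call ended without control replicate 1 (0.0792), 2 (0.0921) or 4 (0.102), or PDGF-BB replicate 3 (0.0718) or 5 (0.107). The second ended without control replicate 1 (0.0665), 2 (0.0779) or 4 (0.0828) or replicate 5 of both (0.0749), and the last ended without eNAMPT replicate 1 (0.0533) or replicate 5 of both (0.0506). Spike-in scaling ended all of them, with log2 fold changes of 0.41 (adjusted p = 0.999), 0.28 (0.868) and 0.29 (0.851). AC037198.1 on the same strand held 357 counts and FSIP1 on the other 205, against 31249 for THBS1. SEMA3A (ENSG00000075213, chromosome 7, 83955777 to 84492724, minus strand), a semaphorin that signals through neuropilin and plexins, ranged from 24.6 to 46.8 CPM in control, 22.2 to 36.5 after eNAMPT, 27.8 to 45.9 after PDGF-BB and 27.7 to 42.0 after both. Its groups overlapped throughout. The log2 fold change of SEMA3A was 0.089 with PDGF-BB (95% interval -0.242 to 0.419, adjusted p = 0.927) and 0.32 with both against eNAMPT (95% interval -0.014 to 0.656, adjusted p = 0.49).

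The same addition of PDGF-BB can be read in 2 comparisons that share no library, against control and, with eNAMPT in all 10 libraries, against eNAMPT. The sign of the log2 fold change was the same in both for all 9 genes: negative for VEGFB and ANGPT1 and positive for the other 7. For VEGFB and ANGPT1 no direction was called. ANGPTL4 had the largest value in both, 1.34 and 1.71, and KITLG had 0.64 and 0.63. The addition of eNAMPT gave values from -0.34 for ANGPTL4 to 0.086 for VEGFC in the absence of PDGF-BB. In its presence they ran from -0.65 for ANGPT1 to 0.24 for VEGFC. Of the eNAMPT intervals against control, those of THBS1 (-0.222 to 0.165) and FGF2 (-0.161 to 0.302) were the narrowest and that of ANGPT1 (-0.764 to 0.667) the widest. NFKBIA, a feedback inhibitor induced by NF-kB, went from 132 to 266 CPM when eNAMPT was added to control. After PDGF-BB alone NFKBIA stood at 137 CPM. Of 16 listed NF-kB target genes, 7 rose when eNAMPT was added to control (median log2 fold change 1.01). More of these genes, 9 of 16, rose when PDGF-BB was added instead (median 0.89). The combined treatment raised 15 of 16 against control (median 1.88). Of all genes 0.0743%, 1.05% and 1.63% were higher in these comparisons, with medians of -0.001, -0.005 and -0.005. The NF-kB list, too, was chosen with earlier results of these data known.

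**Figure D3:**
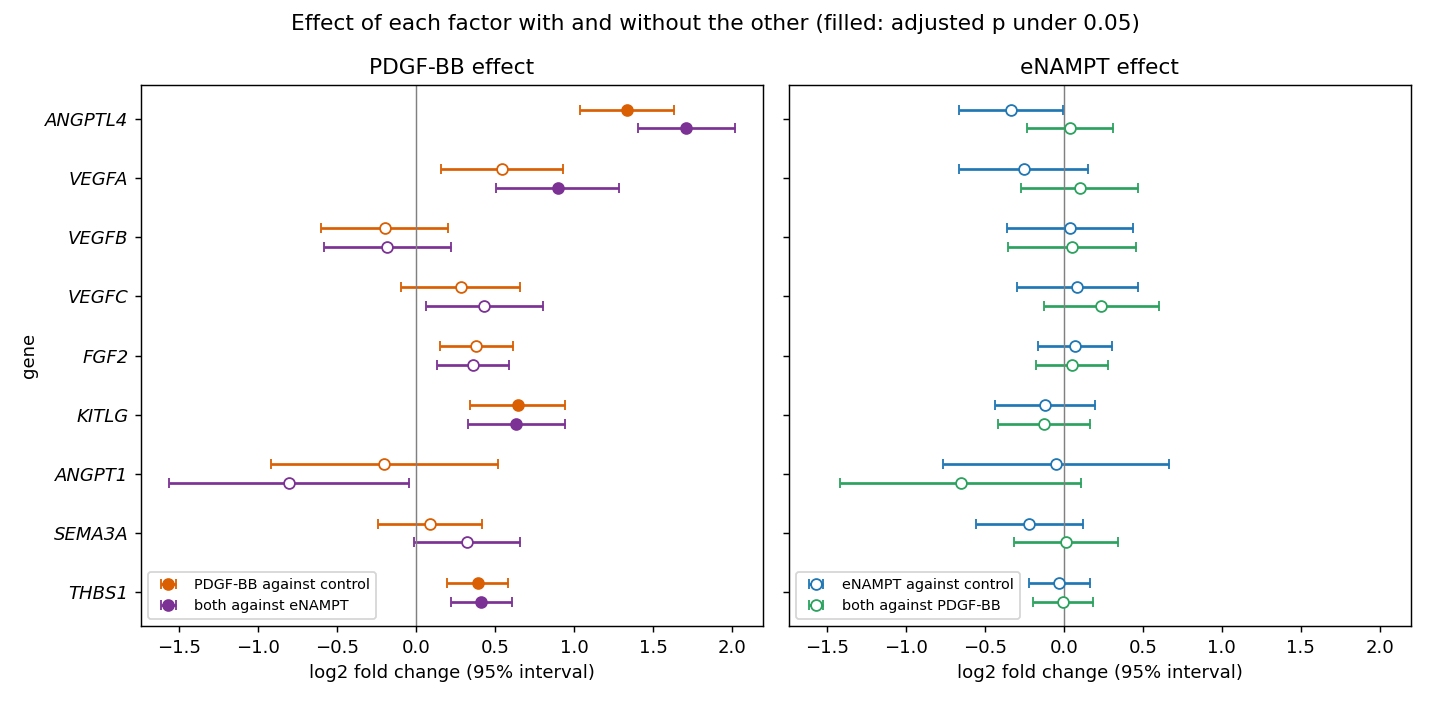
Log2 fold change (x axes) of the 9 tested genes (y axis), with bars for the 95% interval: the left panel adds PDGF-BB without or with eNAMPT and the right panel adds eNAMPT without or with PDGF-BB. Filled points passed at an adjusted p under 0.05; ANGPTL4 lies at 1.34 and 1.71 on the left, and no point on the right is filled.

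Levels of different genes were compared in control as CPM per kilobase of the union of annotated exons. THBS1 was highest at 45.0 ± 7.69, followed by FGF2 at 23.4 ± 4.48, VEGFC at 14.8 ± 4.85, VEGFB at 13.5 ± 4.37 and ANGPTL4 at 10.4 ± 2.55 CPM per kilobase (SD, n = 5). Below these were KITLG at 6.27 ± 1.39, SEMA3A at 3.59 ± 1.01, VEGFA at 1.52 ± 0.555, ANGPT1 at 0.854 ± 0.152 and ANGPT2 at 0.213 ± 0.12. Neighbours whose 5 libraries did not overlap were THBS1 and FGF2, KITLG and SEMA3A, SEMA3A and VEGFA, and ANGPT1 and ANGPT2, and the other neighbours overlapped. With the longest basic coding transcript in place of the union, VEGFA stood at 6.19 and ANGPT1 at 3.99, since their lengths fell from 14431 to 3535 and from 7128 to 1526 bases. VEGFA then ranked above SEMA3A, at 4.09, and overlapped it and KITLG, while ANGPTL4 and KITLG no longer overlapped. The kind of library is not given in the sources used here beyond a standard Illumina protocol, and a count per kilobase is comparable between genes only where reads cover whole transcripts.

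The genes most like each changed member were found by the root mean square difference of centred log2 CPM over the 20 libraries, among 9642 genes. Nearest to ANGPTL4 were HBEGF (0.302), PDGFA (0.35) and DUSP5 (0.358), encoding an EGF receptor ligand, a PDGF chain and an ERK phosphatase. The same measure against a gene with no variation was 0.8 for ANGPTL4. Nearest to VEGFA were the immediate early gene IER2 (0.282), the semaphorin gene SEMA7A (0.283) and the cell cycle inhibitor gene CDKN1A (0.288), with 0.509 for VEGFA against no variation. FGF2 and THBS1 were among each other's nearest at 0.124, which for FGF2 was the smallest difference. NRG1 (0.146) and GLIPR1 (0.148) came next for FGF2, and AGO2 (0.116) and RGMB (0.117) were nearer still to THBS1. Nearest to KITLG were AKAP12 (0.163), ADAMTS6 (0.196) and THBS1 (0.2). These describe likeness over libraries that share groups and replicate numbers.

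Of 24 genes for receptors and coreceptors of these factors 19 were tested. With PDGF-BB against control 1 of 19 passed, and 2 passed with both against control and 2 with both against eNAMPT. Of all genes 1.21%, 1.98% and 1.53% passed there. This list and those below were chosen with earlier results of these data known. SDC4, the heparan sulfate syndecan that binds FGF2 as a coreceptor, was at 252 ± 18.7 CPM in control, 295 ± 25.4 after eNAMPT, 390.0 ± 23.0 after PDGF-BB and 405 ± 27.9 after both (SD, n = 5). It was the only gene of the list to pass with PDGF-BB against control (log2 0.63, adjusted p = 1.04e-07). Both factors together, against control, gave higher SDC4 (0.68, adjusted p = 6.09e-09) and NRP2, a coreceptor of VEGFC (0.52, adjusted p = 0.0366) and no lower gene. KIT, the receptor of KITLG, was at 14.9 ± 4.9 CPM in control, 16.1 ± 3.72 after eNAMPT, 9.23 ± 5.8 after PDGF-BB and 7.39 ± 2.07 after both. With both against eNAMPT KIT was lower by a log2 value of -1.1 (adjusted p = 0.0361), and SDC4 was higher (0.46, adjusted p = 4.44e-05). KIT against control did not pass with PDGF-BB (-0.71, adjusted p = 0.348) or with both (-1, adjusted p = 0.0645).

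The median log2 fold change of the 19 receptor genes was 0.056 with PDGF-BB, 0.093 with both against control and 0.23 with both against eNAMPT. With eNAMPT alone and with eNAMPT added to PDGF-BB 0 of 19 passed. The endothelial VEGF receptor genes KDR and FLT4 had control means of 0.269 and 0.122 CPM and were not tested, and FLT1 stood at 2.64 CPM. The VEGF and semaphorin coreceptor gene NRP1 stood at 85.0 CPM and FGFR1, a receptor of FGF2, at 94.9 CPM in control.

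Of 28 other secreted pro-angiogenic factors, listed under 29 symbols, 19 were tested, of which 3 rose with PDGF-BB and 8 with both factors against control. Of all genes 1.05% and 1.63% were higher there, and 1.18% with both against eNAMPT. With PDGF-BB against control PDGFA (0.94, adjusted p = 6.47e-11), HBEGF (1.01, adjusted p = 4.12e-07) and CXCL8 (2.00, adjusted p = 1.79e-13) were higher on the log2 scale. With both factors 8 of 19 were higher: these 3 and FGF5 (0.68), EDN1 (0.66), CYR61 (0.52), ESM1 (0.70) and EREG (0.85). With both against eNAMPT 5 of 19 were higher (PDGFA, HBEGF, CXCL8, ESM1 and EREG). None of the list was lower in these comparisons. PGF, placenta growth factor, had -0.46 with PDGF-BB (adjusted p = 0.195) and -0.54 with both (adjusted p = 0.0682). With eNAMPT alone CXCL8, a chemokine gene, was the 1 that rose (1.72, adjusted p = 2.37e-11), and it also rose with eNAMPT added to PDGF-BB (1.19, adjusted p = 2.24e-08). The medians of the list were 0.25 with PDGF-BB, 0.47 with both against control and 0.24 with both against eNAMPT.

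Of 23 other secreted inhibitors or guidance factors 15 were tested, and 3 rose in each comparison that adds PDGF-BB, where 1.05% to 1.63% of all genes were higher. The 3 were TIMP3, a metalloproteinase inhibitor (0.44 with PDGF-BB, adjusted p = 0.00134), ADAMTS1, a metalloproteinase (0.60, adjusted p = 0.000144), and PTX3, a pentraxin that binds FGF2 (1.25, adjusted p = 4.26e-08). PTX3 also rose with eNAMPT alone (0.81, adjusted p = 0.00132). The list's median was 0.018 with PDGF-BB, and none of its genes was lower.

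Genes of 3 regulatory programs known to reach some of the 10 genes were read beside them. Of all genes 1.05% were higher with PDGF-BB, 1.63% with both against control and 1.18% with both against eNAMPT. Of 21 tested HIF and hypoxia genes, 1 rose in each comparison that adds PDGF-BB, BHLHE40 (0.75 with PDGF-BB, adjusted p = 0.000813), and SLC2A3 had 0.49 (adjusted p = 0.0536). Of 10 tested PPAR and lipid droplet genes 0 passed with PDGF-BB in edgeR, and LIPE, hormone-sensitive lipase, was lower with both against control (-1.1, adjusted p = 0.0128). Their median was 0.007 with PDGF-BB. Of 19 tested immediate early and ERK output genes 10 rose with PDGF-BB, with a median of 0.57, among them DUSP6 (1.20, adjusted p = 2.91e-07). IER3 rose with eNAMPT alone by 0.60, the 1 gene of that list to do so.

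**Figure D4:**
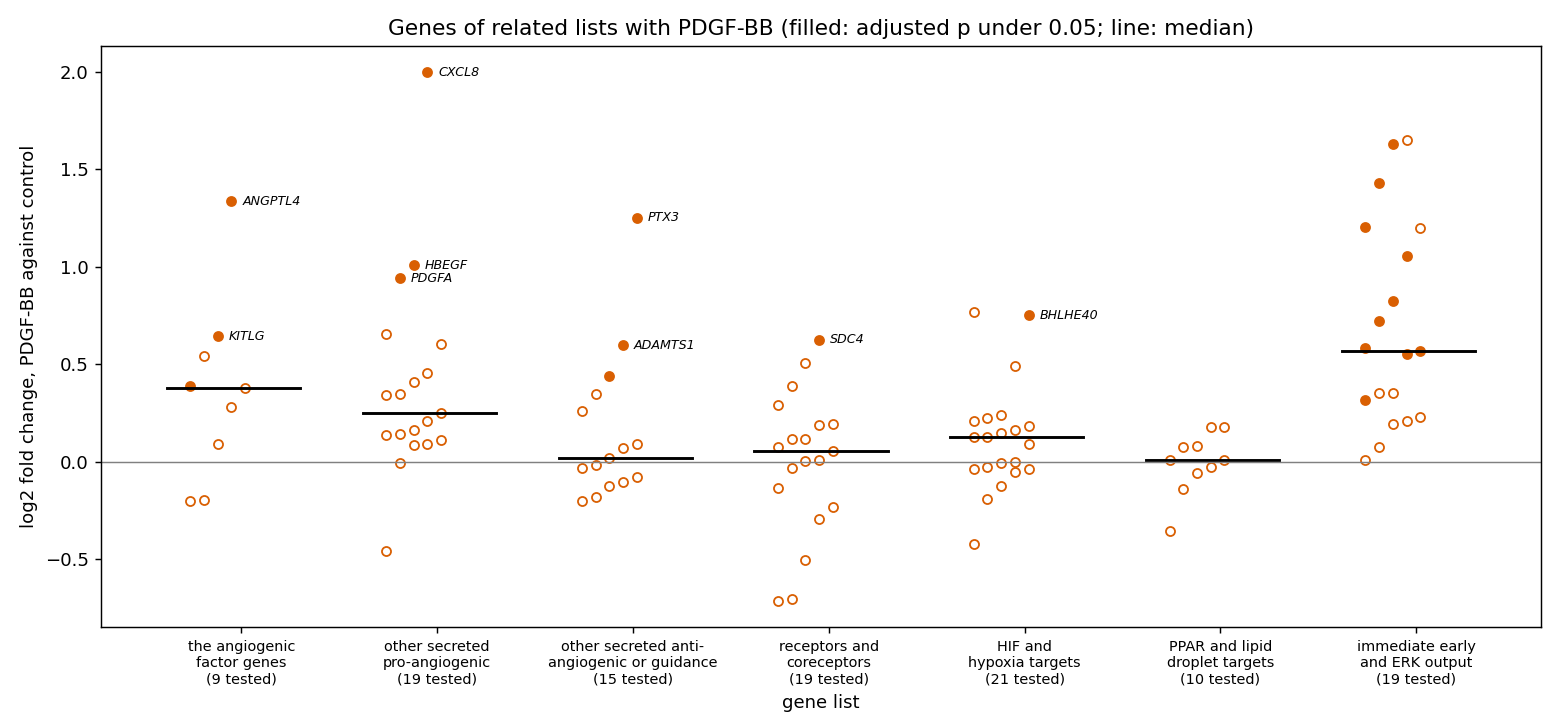
Log2 fold change with PDGF-BB against control (y axis) of the tested genes in 7 lists (x axis); filled points passed at an adjusted p under 0.05 and horizontal lines are list medians. The median of the 9 angiogenic factor genes was 0.38, with ANGPTL4 at 1.34, and that of the 10 tested PPAR and lipid droplet genes was 0.007.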

How the data were processed

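Per the submitters' processing notes, the authors' tools were DESeq2 1.18.1, featureCounts 1.6.4, STAR 2.6.1a and FastQC 0.11.7, on GRCh38; the settings and the use of strand are not given in the sources used here. The deposited table holds raw gene counts per library with no normalization. A further deposited count table was never lower and was higher in 152335 of 1175500 cells, for a reason not given; it served as an alternative. All per-sample columns were mapped. Gene positions and lengths came from GENCODE 29 on GRCh38, in which all 58676 identifiers had the same chromosome and start, and promoters from RefSeq on GRCh38.p14.

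In R 4.3.3, 92 ERCC and 7 SIRV spike-ins were left out, genes were filtered with filterByExpr at its defaults (minimum count 10), scaled by TMM and fitted with edgeR 4.0.16 (glmQLFit and glmQLFTest, two-sided) on all 20 libraries with a mean per group. P-values were adjusted by Benjamini-Hochberg over 12111 genes within each of 6 comparisons, and calls were made at an adjusted p under 0.05. Standard errors are the log2 fold change divided by the square root of F. ANGPT2 was tested on CPM by an exact permutation test. Alternatives were DESeq2 1.42.0, voom in limma 3.58.1, RLE size factors, spike-in scaling, no filter, CPM of at least 1 in 5 libraries, the replicate number as a block, only the groups compared, the other count table and leaving out each library. The fit of the libraries numbered 1 to 4 was added after seeing the data. The test was tried on simulated counts with known changes. The outcome is not given here, and no result above rests on it.

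The members and the gene lists were chosen with earlier results of these data known. All members are described; of each list the genes called, or else up to 4 with the smallest p, may be named, besides control means of receptors, NFKBIA and EGR1; the 3 most similar genes are named for each member called. FLT1, KDR, FLT4, NRP1 and FGFR1 are named as the best known receptors, and DUSP6, the cell type marker genes and KRT18 as examples, after their values were seen. Gene counts of 2894878 to 4011066 per library limit the precision of genes with few counts, ANGPT1 and ANGPT2 most.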

Additional observations from a re-analysis of the deposited data

Results flagged for a closer look

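In each group of 5 libraries the highest or lowest CPM was compared with its nearest neighbour, relative to the range of the group. Of 40 groups checked over the 10 genes, 4 held a library that stood apart, and chance gives about 1 in 20 for each group. The groups share the same 20 libraries, and those numbered 5 deviated together for most of these genes. The checks are thus not independent, and the count is no test against that rate. FGF2 in control replicate 5 was at 211 CPM, with the nearest control at 151. KITLG in eNAMPT replicate 5 was at 49.9 CPM, with the nearest at 34.4, and THBS1 in eNAMPT replicate 5 was at 516 CPM, with the nearest at 390.0. KITLG in PDGF-BB replicate 2 was at 39.6 CPM, the lowest of its group, with the nearest at 60.8.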

How the results depend on the processing

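Of the values of single members under the alternatives, 1549 kept their side of the threshold, 33 fell out of it, 29 came into it and 0 of those called changed sign. The members called were 3 with PDGF-BB against control, 3 with both against control and 4 with both against eNAMPT. With spike-in scaling each of these was 1 (ANGPTL4), and with no filter the count with both against control was 6. The shares of all genes were 0.33%, 0.413% and 0.256% with spike-in scaling, and 1.03% for that count with no filter. Over all genes, spike-in scaling gave 40 in place of 147, 50 in place of 240, 31 in place of 185 and, with both against PDGF-BB, 2 in place of 7. It shifted the median log2 fold change of all genes to -0.142 with both against control, -0.154 against PDGF-BB, -0.143 against eNAMPT and -0.159 for the interaction. DESeq2 gave 14 genes in place of 9 with eNAMPT against control and 11 with both against PDGF-BB. With no filter these were 14 and 12 and the interaction had 3 in place of 0, and with only the groups compared both against PDGF-BB had 11. The cause of these changes was not tested. Leaving out a library in turn gave 1 to 4 members with PDGF-BB against control, 1 to 5 with both against control, 2 to 5 with both against eNAMPT, and 0 to 1 genes for the interaction. In the first 3 of these comparisons 0.849% to 1.24%, 1.47% to 2.04% and 1.17% to 1.67% of all genes passed. PDGF-BB against control fell to 1 member without control replicate 1, 2 or 4, both against control fell to 1 without control replicate 2 or 4 and rose to 5 without control replicate 5, and both against eNAMPT fell to 2 without eNAMPT replicate 1 or replicate 5 of both.

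Libraries that share a replicate number deviated from their group means with correlations of 0.014 to 0.252 (median 0.153) over 30 pairs and 9643 genes. Of these pairs 23 were over 0.1, and in 24 of 30 a library correlated best with its own number. Pairing by number is a hint from these values and from the sample order, and the labels do not state it. With the replicate number as a block, 21, 377, 510, 15 and 511 genes passed with eNAMPT, PDGF-BB and both against control, and with both against PDGF-BB and against eNAMPT, and 7 for the interaction. Under the block 3.11% of all genes passed with PDGF-BB against control, 4.21% with both against control and 4.22% with both against eNAMPT. The members that passed under the block were 5 with PDGF-BB against control, 6 with both against control and 6 with both against eNAMPT. Those that passed with the block and not without it were VEGFA (adjusted p = 0.0177) and FGF2 (1.53e-05) in the first, VEGFA (0.0019), VEGFC (0.00416) and KITLG (0.00123) in the second, and VEGFC (0.0229) and FGF2 (2.59e-05) in the last. Depth limits ANGPT1 and ANGPT2, with at most 33 and 9 counts per library.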
